A study of Mus musculus with 4 samples.

Results

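The ZBTB genes described here are all mouse protein-coding genes of the RefSeq annotation whose symbol begins with Zbtb, apart from Zbtb16, the gene of PLZF itself. There were 40 of them among 21883 protein-coding nuclear genes. They were set against the streptavidin ChIP-seq peaks of 2 thymocyte libraries, and a peak was counted at a gene when its midpoint lay within the gene or up to 20 kb from either end. Streptavidin beads captured biotin-tagged chromatin complexes, meant to contain PLZF, from sonicated nuclei. The Tg thy library was made from thymocytes of PLZF tg/BirA tg mice on a C57BL/6 background, transgenic for PLZF and for BirA, a bacterial enzyme that attaches biotin. The NKT library came from PLZF tg/BirA tg/Valpha14 tg mice, which carried in addition the T cell receptor alpha chain transgene of invariant natural killer T cells. Its cell type is also given as thymocytes, and the labels name no sort and no promoter for any of the transgenes. Both groups thus shared the PLZF and BirA transgenes, and no pull-down from mice without them was among the samples. Input libraries of the same 2 genotypes were not analysed here. With 1 library per group there was no replicate check, and no test between the groups was possible. The files hold peaks and no expression values, so the cell type could not be checked against marker genes.

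ZBTB proteins are transcription factors that join an N-terminal BTB domain, through which they dimerise and recruit co-repressors such as NCOR and histone deacetylases, to C-terminal zinc fingers that bind DNA. Several members direct the fates of lymphocytes. ThPOK, encoded by Zbtb7b, commits thymocytes to the CD4 lineage, its relative LRF (Zbtb7a) helps to keep CD4 T cells committed, and PLZF gives natural killer T cells their innate-like effector character. One gene that the symbol rule admits, Zbtb8os, is named for its position opposite Zbtb8a and encodes archease, a cofactor of tRNA ligation, not a BTB zinc finger protein.

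Of the 36 ZBTB genes with an entry in the RefSeq promoter table of GRCm38.p6, 2 had a Tg thy peak over the promoter window (250 bases before to 50 bases after a gene start) and 3 an NKT peak. Over all protein-coding genes in the table the shares were 3.28% and 2.42%. The promoters of Zbtb45 and Zbtb8os were covered in both lists and that of Zbtb5 in the NKT list. They are printed here, from the 250 bases before the start, as the places where peaks met a promoter window among these 36 genes. Zbtb40, with a site of both lists at a gene boundary, has no entry and could not be scored. The promoter of Zbtb17, which had no peak in either list, is printed for contrast. Capitals mark the bases that lay within peaks of both lists, or for Zbtb5 within an NKT peak. For Zbtb45 and Zbtb8os the annotated gene span begins upstream of the start used in the table.
Zbtb45, chr7:13009853-13010102, minus strand: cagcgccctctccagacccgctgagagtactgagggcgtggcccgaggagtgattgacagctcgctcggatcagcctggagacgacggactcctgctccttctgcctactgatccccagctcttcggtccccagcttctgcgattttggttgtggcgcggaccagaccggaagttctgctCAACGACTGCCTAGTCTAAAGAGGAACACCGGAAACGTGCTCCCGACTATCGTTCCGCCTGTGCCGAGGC
Zbtb8os, chr4:129335718-129335967, plus strand: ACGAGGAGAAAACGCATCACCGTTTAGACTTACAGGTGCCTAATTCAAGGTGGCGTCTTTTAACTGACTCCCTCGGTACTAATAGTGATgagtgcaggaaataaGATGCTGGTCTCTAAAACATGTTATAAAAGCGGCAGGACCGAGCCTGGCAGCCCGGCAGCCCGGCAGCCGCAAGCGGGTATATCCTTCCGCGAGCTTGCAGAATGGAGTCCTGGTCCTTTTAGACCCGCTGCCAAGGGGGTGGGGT
Zbtb5, chr4:45012413-45012662, minus strand: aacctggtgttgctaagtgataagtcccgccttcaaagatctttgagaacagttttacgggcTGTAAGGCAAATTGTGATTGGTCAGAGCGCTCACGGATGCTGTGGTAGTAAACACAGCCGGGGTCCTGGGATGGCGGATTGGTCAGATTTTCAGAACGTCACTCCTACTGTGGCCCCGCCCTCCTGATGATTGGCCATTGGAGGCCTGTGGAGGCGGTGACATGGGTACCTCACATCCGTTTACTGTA
Zbtb17, chr4:141444423-141444672, plus strand: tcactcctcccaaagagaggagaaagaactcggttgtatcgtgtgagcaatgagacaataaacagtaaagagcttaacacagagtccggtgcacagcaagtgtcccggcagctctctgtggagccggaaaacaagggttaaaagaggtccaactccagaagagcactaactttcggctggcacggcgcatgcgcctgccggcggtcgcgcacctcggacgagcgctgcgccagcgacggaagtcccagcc

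The 70 capital bases of Zbtb45 end at the start of the gene, and the Tg thy peak reached further, over 181 of the 250 bases. At Zbtb8os 1 Tg thy peak covered all 250 bases, and a pair of NKT peaks covered 235, leaving a short gap between them. At Zbtb5 the NKT peak covered 188 bases. Exact matches to 7 short motifs were counted on both strands, none of which contains another: CCGGAAG (ETS factors), TGTGGT (RUNX factors), TGACGTCA (the cyclic AMP response element), CACGTG (the E-box), GGGCGG (the GC box), CCAAT, and the NRF1 motif, a palindrome of 10 letters. The 250 bases of Zbtb45 held 1 ETS match, outside the capitals. Those of Zbtb5 held 4 CCAAT matches, all 4 within the capitals, 1 RUNX match and 1 GC box. Those of Zbtb17 held 1 NRF1 match, and those of Zbtb8os held no match to any of the 7. A match describes the letters only and shows no factor bound.

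Across the 49 promoter sequences listed for the 36 genes, ZBTB promoters were rich in CpG. They held a median of 25 CpG dinucleotides (quartiles 11 to 34) per 300 bases, against 13 (4 to 24) over the 21262 promoters of all protein-coding genes, and a median GC content of 63.3% against 56.3%. The GC box was present in 33 of the 49 (67.3%, against 46.2% of all promoters) and the ETS motif in 12 (24.5%, against 11.6%). The RUNX motif was present in 11 (22.4%, against 15%) and CCAAT in 15 (30.6%, against 38.2%). E-box matches were found in 6 (12.2%, against 7.84%), NRF1 matches in 3 (6.12%, against 1.33%) and cyclic AMP response elements in 2 (4.08%, against 2.23%). Some genes have several of the 49 sequences. With the first promoter of each of the 36 genes, RUNX fell to 6 (16.7%) and CCAAT rose to 13 (36.1%), both nearer to the shares of all promoter sequences. The GC box was then in 25 (69.4%), ETS in 11 (30.6%) and the E-box in 5 (13.9%), each further from those shares. NRF1 and the cyclic AMP response element were each in 2 (5.56%), the former nearer and the latter further. No share by first promoter over all genes stands beside these values, so the units differ. Motifs made of G and C are more frequent in GC-rich sequence, and no test of these differences was made.

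**Figure D1:**
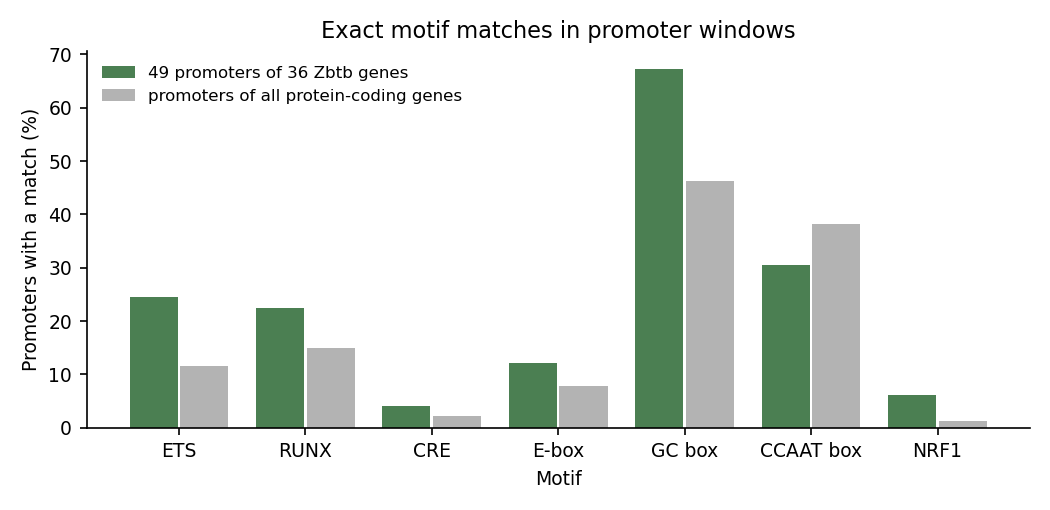
Percentage of promoter windows of 300 bases with at least 1 exact match to each motif, on either strand, for the 49 promoters of 36 ZBTB genes (green) and for all protein-coding genes (grey). The GC box (67.3% against 46.2%) and the ETS motif (24.5% against 11.6%) show the widest gaps, and CCAAT is the motif that is less frequent in ZBTB promoters.

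Peaks were found at 15 of the 40 ZBTB genes in the Tg thy list (37.5%) and at 12 in the NKT list (30.0%), and 11 genes had a peak in both (27.5%). Over all protein-coding genes the same windows held a peak for 19.9%, 16.9% and 12.4%. The 11 genes were Zbtb1, Zbtb5, Zbtb7a, Zbtb8a, Zbtb8os, Zbtb9, Zbtb22, Zbtb25, Zbtb38, Zbtb40 and Zbtb45. The Tg thy list alone had peaks at Zbtb4, Zbtb7b, Zbtb8b and Zbtb41, and the NKT list alone at Zbtb20. The other 24 genes (60.0%, against 75.6% of all genes) had no peak in either window. Some members share a window: Zbtb1 with Zbtb25, and Zbtb8a with Zbtb8os, were counted from the same peaks. With overlapping windows taken as 1 locus, a choice made after the values were seen, 13 of 36 loci had a Tg thy peak, 10 an NKT peak and 9 both. The windows of all protein-coding genes merge into 6059 in the same way. No share of those with a peak stands beside the locus counts, and the shares per gene above are of another unit.

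The windows held 17 distinct Tg thy peaks and 16 distinct NKT peaks in 3.391 Mb, or 5.01 and 4.72 peaks per Mb. The windows of all protein-coding genes together held 2.93 and 2.34 per Mb. The ZBTB genes were of ordinary length, with a median of 18.2 kb against 17.2 kb. Their windows were more crowded, with a median of 2 other protein-coding genes against 1, and the part of this crowding in the counts was not tested. Many of the peaks lay nearer to a neighbour than to the ZBTB gene. A ZBTB gene was the nearest protein-coding gene for 10 of the 17 Tg thy peaks and 10 of the 16 NKT peaks. Counted that way, 7 of the 40 genes had a Tg thy peak (17.5%, against 12.4% of all genes), 8 an NKT peak (20%, against 10.5%) and 5 both (12.5%, against 7.32%). Within gene bodies alone the counts were 5 (12.5%, against 8.37%), 6 (15%, against 7.18%) and 4 (10%, against 4.88%). With 5 kb on either side they were 6, 7 and 4, against 13.1%, 10.8% and 7.59% of all genes, which for the ZBTB genes is 15%, 17.5% and 10%. With 50 kb on either side they were 18 (45%, against 30.3%), 15 (37.5%, against 26.3%) and 13 (32.5%, against 20.6%). Among the top 50% of each list by score, 6 genes (15%, against 11.2%), 7 (17.5%, against 9.48%) and 5 (12.5%, against 7.17%) had a peak within 20 kb. Among the top 1000 peaks of each list the counts were 1 (2.5%, against 4.47%), 3 (7.5%, against 4.71%) and 1 (2.5%, against 3.07%), so the ZBTB share was below that of all genes there in the Tg thy list and for both lists together.

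**Figure D2:**
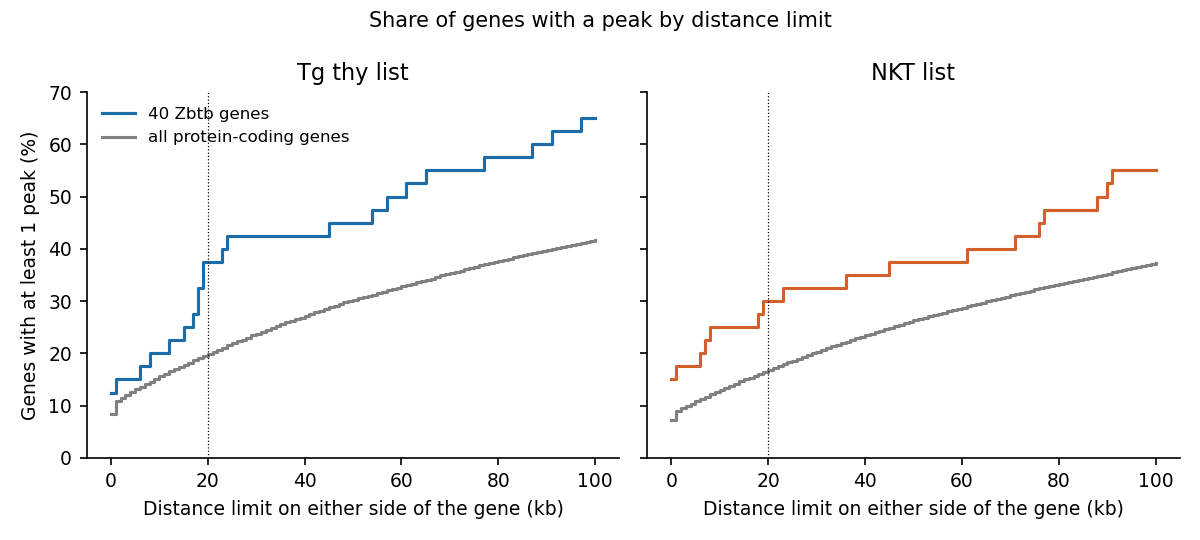
Percentage of genes with at least 1 peak (vertical axis) as the distance allowed on either side of the gene grows (horizontal axis, kb), for the 40 ZBTB genes (coloured) and all protein-coding genes (grey), with the 20 kb limit dotted. At 20 kb the ZBTB share is 37.5% in the Tg thy list and 30.0% in the NKT list, and the Tg thy line climbs steeply just before that limit.

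The peaks at ZBTB genes ranged from scores near the minimum of their lists to a few strong ones. The score is the authors' value for each peak, and its definition is not stated. In the upper 50% of their list by score were 6 of the 17 Tg thy peaks and 9 of the 16 NKT peaks, and among the top 1000 were 2 and 4. The 17 Tg thy peaks had a median score of 84.6 (lowest 52.5, highest 364), below the median of the whole list, 110.8. The 16 NKT peaks had a median of 75.4 (lowest 52.4, highest 479), against 73.8 in the whole list. Scores of the 2 lists stand side by side as a description, since their scale can move with depth, which is unknown. An NKT peak overlapped 9 of the 17 Tg thy peaks by at least 1 bp, 52.9% (exact 95% binomial interval 27.8 to 77.0%), against 45.7% of the whole Tg thy list. In the other direction 11 of the 16 NKT peaks were overlapped, 68.8% (41.3 to 89.0%), against 60.7% of the whole NKT list. Both whole-list shares lie inside these intervals, which cover counting error only. Within 1 kb of a start of the ZBTB gene, or of the nearer boundary for Zbtb40, lay 4 Tg thy peaks, 23.5% (6.81 to 49.9%), and 6 NKT peaks, 37.5% (15.2 to 64.6%). For peaks in the windows of all protein-coding genes, 21.7% and 22.7% lay within 1 kb of the start of any gene whose window held them. These values lie inside the intervals as well, but the measure is wider, since starts of several genes could count. Within 1 kb of any start in the promoter table lay 29.4% (10.3 to 56.0%) of the Tg thy peaks in ZBTB windows, against 20.1%. In the NKT list this share was 31.2% (11.0 to 58.7%), against 20.5%.

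**Figure D3:**
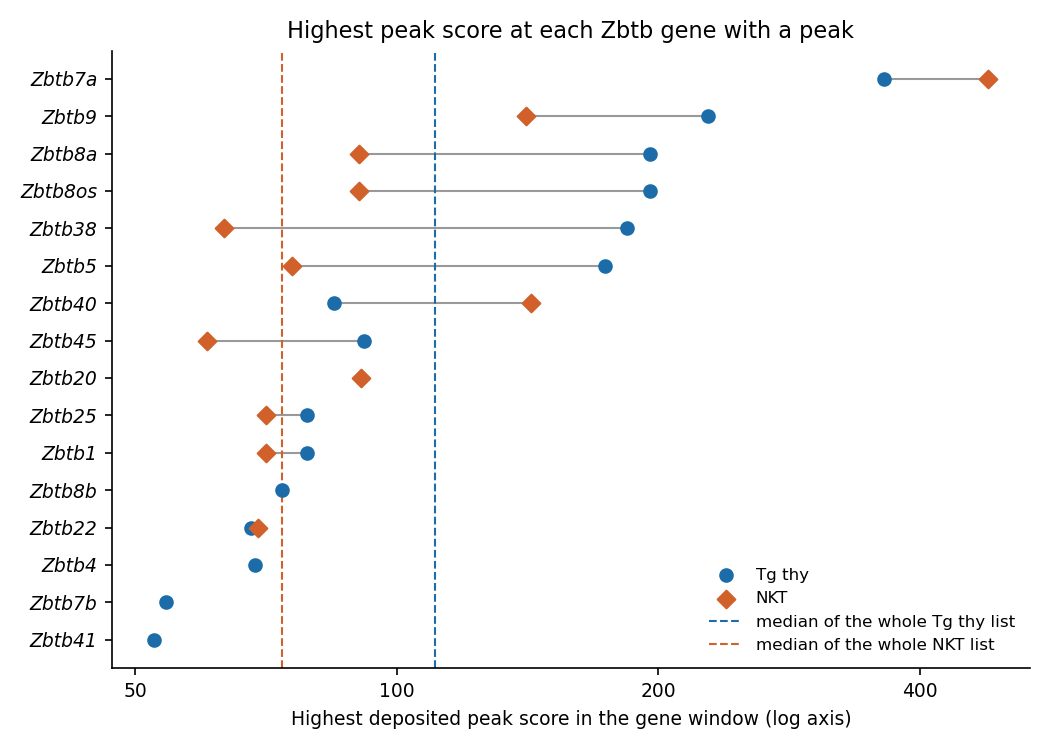
Highest deposited score (log axis) among the peaks in the window of each of the 16 ZBTB genes with a peak, for the Tg thy list (blue circles) and the NKT list (orange diamonds), with the median of each whole list dashed. Zbtb7a stands to the right of the other genes in both lists, with 364 and 479.

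Among the members that govern lymphocyte fate, Zbtb7a had the strongest peaks. They formed a double site beyond the far end of the gene, about 33 kb downstream of its start on chromosome 10. The Tg thy list had peaks of score 359 (81168862 to 81169245) and 364 (81169315 to 81170018) there, within the top 9.70% and 9.48% of that list. The NKT list had peaks of 479 (81168818 to 81169303) and 357 (81169595 to 81170028), within the top 1.95% and 4.07%. All of them overlapped a peak of the other list. They lay outside Zbtb7a, 16.8 to 17.6 kb from it, and nearest to Pias4, which encodes a SUMO ligase. Upstream of Zbtb7a, at 8.56 kb from its start, the NKT list had a further peak of score 91.8 (81127618 to 81127801), nearest to the MEK2 gene Map2k2, with no Tg thy counterpart. No peak of either list lay inside Zbtb7a.

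Zbtb7b, the gene of ThPOK, had no peak inside it in either list. Its single entry was a weak Tg thy peak of score 54.2 on chromosome 3 (89411695 to 89411932), 18.1 kb from the gene and 68 bp from the start of Flad1, the gene of FAD synthetase. In the NKT list the nearest peak was 131.3 kb away. The peak nearest to Zbtb7c, the third gene of this subfamily, was 220.2 kb away, in the Tg thy list.

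Zbtb1, which lymphoid progenitors need to form T cells, and Zbtb25 lie head to head on chromosome 12, and their peaks differed in place between the lists. The Tg thy list had 3 weak peaks inside Zbtb25, of scores 56.8 (76361294 to 76361557), 57.9 (76361924 to 76362183) and 78.8 (76362398 to 76362741), at 6.89 to 8.04 kb from its start. The NKT list had 1 peak, of score 70.6 (76376722 to 76376923), inside Zbtb1 at 6.30 kb from its start. None of the 4 overlapped a peak of the other list, and none lay over the starts of the 2 genes. Both genes therefore count as having a peak in both lists although no site was common to the lists.

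Zbtb20, which encodes a repressor best known in liver and hippocampus, had 1 NKT peak of score 90.9 on chromosome 16 (43624919 to 43625175). The peak lay inside this long gene of 759 kb but near its far end. It was 377.8 kb downstream of the listed start of Zbtb20, and the gene ended at 387.1 kb from that start. The peak was 39.1 kb from the start of Tigit, an inhibitory receptor gene of T and natural killer cells. The nearest Tg thy peak was 504.6 kb from Zbtb20. Some members with a known part in T cells or other immune or developmental lineages were set to be described whatever their values. They were picked by name, not by a rule, and do not stand for all such members. Of those picked, Zbtb1, Zbtb7a, Zbtb7b, Zbtb20 and Zbtb25 had a peak in at least 1 list, and 5 had none in either. Over all protein-coding genes 75.6% had none in either. The 5 were Zbtb17 (the MYC partner MIZ1), Zbtb18 (RP58), Zbtb24 (a gene of the ICF immunodeficiency syndrome), Zbtb32 (PLZP, a repressor of T cell cytokine genes) and Zbtb46 (a marker of classical dendritic cells). The distance from the gene to the nearest peak was 90.8 kb in the Tg thy list and 90.9 kb in the NKT list for Zbtb17, 449 and 496.4 kb for Zbtb18, and 53.1 and 87.5 kb for Zbtb24. It was 23.4 and 195.1 kb for Zbtb32 and 151 and 183.9 kb for Zbtb46.

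Zbtb38, Zbtb4 and Zbtb33 encode the Kaiso-like proteins, which can bind methylated CpG. Zbtb38 had a site common to both lists inside the gene on chromosome 9, 13.6 kb from the nearest listed start. Its score was 184 in the Tg thy list (96705579 to 96706160, top 28.7%) and 63.3 in the NKT list (96705721 to 96705913, top 61.9%). A second Tg thy peak of 96.0 (96713168 to 96713573) lay at 6.08 kb from a start and had no NKT counterpart. Zbtb4 had only a Tg thy peak of score 68.7 on chromosome 11 (69754703 to 69754928), 11.1 kb upstream and nearest to Polr2a, which encodes the largest subunit of RNA polymerase II. Zbtb33, on the X chromosome, had its nearest peak at 1063 kb, in the NKT list.

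Peaks met the start or a boundary of the gene at 5 further members. Zbtb40 had a common site inside the gene at its end boundary in chromosome coordinates, on chromosome 4. Its score was 84.6 in the Tg thy list (137048590 to 137048898) and 142.8 in the NKT list (137048603 to 137048959), with midpoints 76 and 39 bp from the boundary. The promoter table holds no entry for this gene, so the strand was not used. At Zbtb45 the common site had scores of 91.6 (13009697 to 13010033 on chromosome 7) and 60.5 (13009731 to 13009922), with midpoints 13 and 26 bp from the start. At Zbtb8os the Tg thy peak of 196 (129335596 to 129336032 on chromosome 4) overlapped NKT peaks of 90.4 (129335581 to 129335806) and 66.6 (129335822 to 129336015). The same peaks lie 17.7 to 17.9 kb from Zbtb8a and are the only ones counted there. Zbtb41 had a Tg thy peak near the score minimum, 52.5 (139421793 to 139422036 on chromosome 1), 469 bp upstream of the start. Zbtb5, whose product represses the cell cycle inhibitor gene Cdkn1a, had 2 NKT peaks upstream of its start on chromosome 4, of scores 75.2 (45012412 to 45012600) and 53.6 (45012723 to 45012872), with midpoints at 94 and 385 bp. The weaker of the 2 lay nearer to another start, at 13 bp from that of 1700055D18Rik. The Tg thy list had no peak overlapping either.

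**Figure D4:**
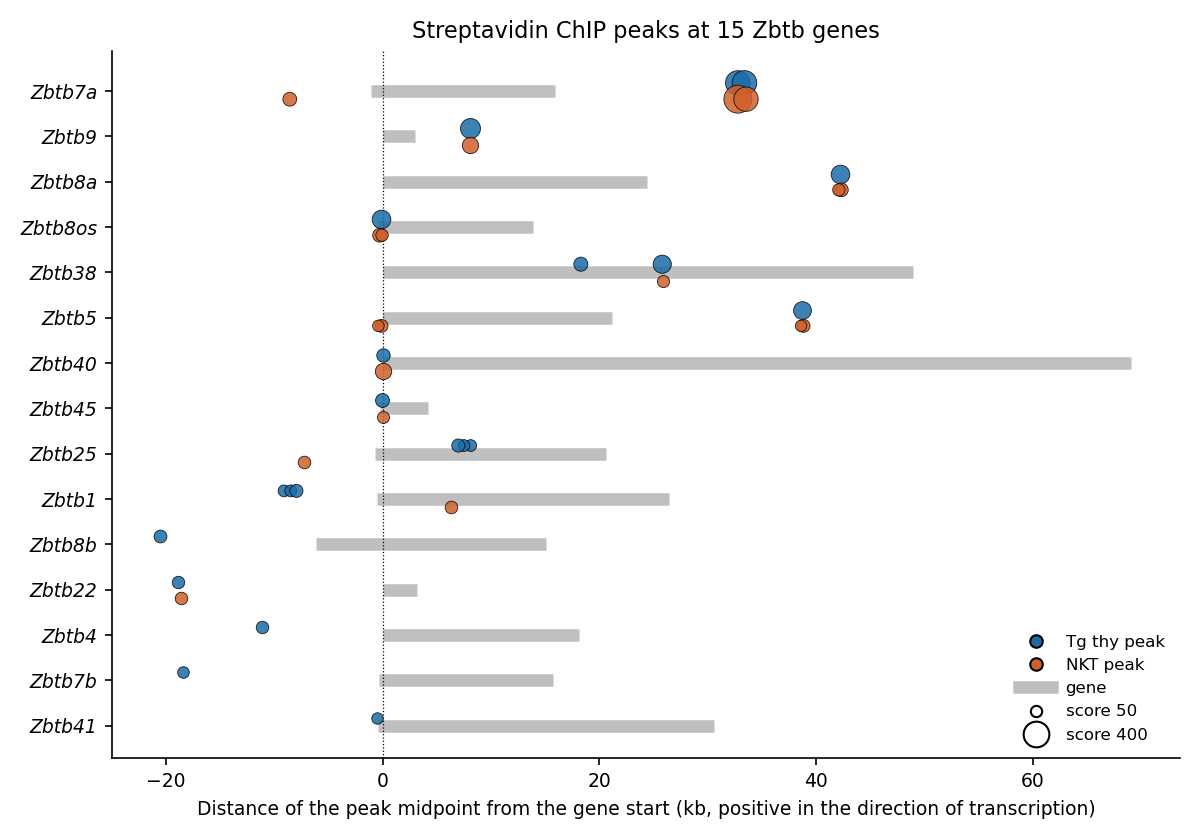
Midpoints of Tg thy (blue) and NKT (orange) peaks relative to the gene start (horizontal axis, kb, positive in the direction of transcription), with the gene as a grey bar and the circle area growing with the score. The outermost start of the promoter table is used, Zbtb40 is drawn from its end boundary without a known strand, and Zbtb20 is left out for its length. Peaks sit within 1 kb of the start of Zbtb5, Zbtb8os, Zbtb41 and Zbtb45 and at the end boundary of Zbtb40, and the largest circles lie beyond the far end of Zbtb7a.

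The remaining sites lay outside the gene. Zbtb9 had a common site 8.1 kb downstream of its start on chromosome 17, with scores of 228 (26981016 to 26981549, top 21.2% of the Tg thy list) and 141 (26981073 to 26981460, top 20.5% of the NKT list). Zbtb9 was the nearest protein-coding gene to it. Besides the peaks at its start, Zbtb5 had a common site 17.5 to 17.7 kb beyond its far end, nearest to Grhpr, the glyoxylate reductase gene. The Tg thy score was 174 (44973460 to 44973888), and the NKT list divided the site into peaks of 75.7 (44973436 to 44973685) and 52.4 (44973694 to 44973881). Zbtb22 had a weak common site 18.6 to 18.8 kb upstream, nearest to Smim40, with scores of 67.9 (33897200 to 33897477 on chromosome 17) and 69.2 (33897431 to 33897637). Zbtb8b had a Tg thy peak of 73.8 (129461134 to 129461512 on chromosome 4) that lay 356 bp from the start of Bsdc1. The Zbtb22 peaks were those closest to the 20 kb limit on its inner side. Just outside it was a stronger common site on chromosome 16 near Zbtb11, at 22.3 kb with a score of 269 in the Tg thy list (55948910 to 55949468) and at 22.4 kb with a score of 345 in the NKT list (55948751 to 55949374).

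The 24 genes without a peak in the window were Zbtb2, Zbtb3, Zbtb6, Zbtb7c, Zbtb10, Zbtb11, Zbtb12, Zbtb14, Zbtb17, Zbtb18, Zbtb21, Zbtb24, Zbtb26, Zbtb32, Zbtb33, Zbtb34, Zbtb37, Zbtb39, Zbtb42, Zbtb43, Zbtb44, Zbtb46, Zbtb48 and Zbtb49. Over the 40 members the median distance from the gene to the nearest peak was 58.2 kb in the Tg thy list (quartiles 16.2 to 222 kb) and 88.7 kb in the NKT list (15.2 to 299 kb). Over all protein-coding genes it was 151 and 183 kb.

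BTB zinc finger proteins are also encoded under other symbols, and 8 such genes were examined in the same way. Of these, 3 had a Tg thy peak (37.5%, against 19.9% of all protein-coding genes) and 2 an NKT peak (25%, against 16.9%), and 5 (Bcl6b, Gzf1, Hic1, Hic2 and Zfp131) had none. Bcl6, the repressor that directs T follicular helper and germinal centre B cells, had 4 Tg thy peaks, the highest of score 152 inside the gene at 2.47 kb from its start (chromosome 16, 23986129 to 23986627). It had 2 NKT peaks, the higher of 61.4 (23972788 to 23972955), and 1 peak of each list overlapped one of the other. Patz1, which encodes the thymocyte factor MAZR that acts on the Cd8 and Zbtb7b genes, had 5 Tg thy peaks with a highest score of 210 (chromosome 11, 3313283 to 3313758) and 2 NKT peaks with a highest score of 154 (3309933 to 3310316). Both of these lay outside Patz1, which was the nearest protein-coding gene. Mynn had 1 Tg thy peak of 66.7, at 0.102 kb from its start (chromosome 3, 30602074 to 30602305), and no NKT peak.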

How the data were processed

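Streptavidin ChIP-seq was deposited as 1 peak list per library, with 5198 peaks for Tg thy and 4246 for NKT. Each peak carries a score that the authors deposited with it, from 50.03 to 3132.58 and from 50.02 to 3104.48. No source used here defines it. The peak names begin with MACS. Per the submitters' processing notes the build was mm10 and the tools were Bowtie, Picard and HOMER. Their versions, the control used in peak calling and any pooling are not stated there. Library depth is unknown, so a weak site may be listed for one library and missed for the other.

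Starts were raised by 1 base. Gene spans came from RefSeq GRCm38.p6, the assembly that mm10 names. Gene starts and strand came from its promoter table, which held 36 of the 40 genes, and for the rest the nearer gene boundary was used. Exons were not used. Peaks, windows and overlaps were handled in Python 3.11.15 with pandas 2.3.3 and scipy 1.17.1, and checked on simulated peaks. No test was run. Counts stand beside those of all protein-coding genes, and shares of peaks have exact Clopper-Pearson 95% intervals. Every ZBTB gene is named. The Zbtb5 promoter was added to those printed after its values were seen. Members and lists were chosen with earlier results of these data known. Alternatives were other windows, nearest gene only, stricter peak sets, other overlap rules and other distances.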

Additional observations from a re-analysis of the deposited data

How the results depend on the processing

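The counts fell with narrower windows and with stricter peak sets. Given for the Tg thy list, the NKT list and both lists, ZBTB genes with a peak numbered 5, 6 and 4 with gene bodies alone, and 6, 7 and 4 with 5 kb on either side. They numbered 6, 7 and 5 with the top 50% of each list by score, and 1, 3 and 1 with the top 1000. With the nearest protein-coding gene only they were 7, 8 and 5. Zbtb7a was the gene with a peak in both lists among the top 1000. The distinct peaks, Tg thy first and NKT second, numbered 8 and 7 with gene bodies, 9 and 9 with 5 kb, 25 and 26 with 50 kb, 10 and 10 with the nearest gene, 6 and 9 with the top 50% and 2 and 4 with the top 1000. The counts of genes stayed within 1.5 times with 50 kb, with any overlap of the window, without Zbtb8os and with overlapping windows as 1 locus. The share of Tg thy peaks that overlapped an NKT peak was 83.3% (5 of 6) with the top 50% of each list, and that of NKT peaks was 37.5% (6 of 16) with reciprocal 50% overlap. No whole-list share under the same setting stands beside these 2 values, so they cannot be read as particular to ZBTB peaks. Shares within 1 kb of the start stayed inside their intervals at 0.5 and 2.5 kb, at either boundary and with the top 50%. Of the other BTB zinc finger genes, 6 had a Tg thy peak with 50 kb (against 30.3% of all genes), and 1 an NKT peak with gene bodies (against 7.18%) and 1 with the top 50% (against 9.48%). The causes were not tested. No paired analysis was possible because each group had 1 library. Depth and the lack of replicates limit every comparison of the 2 lists.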

Other observations

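Zinc finger genes of another naming family were counted in the same windows. Of 397 genes whose symbol is Zfp followed by a number, most of them C2H2 zinc finger genes and Zfp131 among them, 67 had a Tg thy peak within 20 kb (16.9%), 56 an NKT peak (14.1%) and 41 both (10.3%). All protein-coding genes gave 19.9%, 16.9% and 12.4%, and the difference from the ZBTB genes was not tested. The Zfp genes had a median length of 18 kb, close to the 18.2 kb of the ZBTB genes. Their windows were less crowded, with a median of 1 other protein-coding gene against 2, and so do not match in that respect. The Zfp windows held 3.16 Tg thy and 2.88 NKT peaks per Mb. Among the ZBTB genes, 9 of the 21 longer than the median of all genes had a Tg thy peak (42.9%, against 23.6% of all such genes), and so had 6 of the 19 shorter ones (31.6%, against 16.1%). In the NKT list these numbers were 7 of 21 (33.3%, against 20.4%) and 5 of 19 (26.3%, against 13.4%).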
